A study of Mus musculus with 2 samples.

Results

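Natural killer (NK) cells and type 1 innate lymphoid cells (ILC1) of mouse liver tumours were described in 426 of 18786 kept cell barcodes, 228 from a Crtc2-/- library and 198 from a Crtc2+/+ library. Members were chosen by the measured UMIs of the genes named next, so those genes are given as a description only. A barcode was a member if it held at least 2 unique molecular identifiers (UMIs, counts of captured transcripts) over Ncr1, Klrb1c, Klre1 and Eomes, none of Cd3d, Cd3e, Cd3g, Siglech or Cd79a, and at most 4 over C1qa, C1qb and C1qc. Kept barcodes had at least 500 UMIs, at least 250 detected genes and at most 20% mitochondrial UMIs. Both genotypes had received diethylnitrosamine (DEN), a liver carcinogen, at 25 mg/kg into the peritoneum at 2 weeks of age. A diet that causes non-alcoholic steatohepatitis followed between weeks 8 and 26, and tumours were taken from the liver at the end. Every mouse in the comparison had therefore been exposed to carcinogen and diet, and no untreated liver was analysed here. The product of Crtc2 coactivates CREB, a transcription factor that responds to cAMP. The labels do not give the number of animals per library, their sex, the part of Crtc2 that is deleted or the cell types in which it is deleted.

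NK cells and ILC1 are lymphocytes without rearranged antigen receptors. NK cells circulate, kill target cells with perforin and granzymes, and depend on the transcription factor Eomes. ILC1 reside in the liver, carry the integrin alpha 1 chain and the chemokine receptor Cxcr6, and in mice share Ncr1 and Klrb1c (NK1.1) with NK cells. Both respond to interferons and release cytokines and chemokines such as Ifng, Xcl1 and Ccl5.

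Each genotype had 1 library, so no test, p-value or standard error was made, and the genotype cannot be told apart from the animals, tumours or handling of its library. Members held 1354413 UMIs in the Crtc2-/- library and 1013590 in the Crtc2+/+ library. Median depth was 4872.5 UMIs and 2223.5 genes in Crtc2-/- members, and 4754 UMIs and 2165 genes in Crtc2+/+ members, with median mitochondrial shares of 1.89% and 1.88%. In total 29 barcodes occurred in both libraries, and 0 Crtc2-/- members and 1 Crtc2+/+ member carried such a barcode. Levels are given as CPM, a gene's UMIs scaled to a common total of all UMIs of the members of a library, and each log2 ratio divides the Crtc2-/- by the Crtc2+/+ level, both raised by 10 CPM, which understates ratios of low genes. Intervals are exact 95% intervals and cover counting error only. Levels were not divided by transcript length, so genes are compared between libraries and not with each other.

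The genes that chose the members are given as a description. Ncr1, an activating receptor, was detected in 213 Crtc2-/- members (93.4%) and in 187 Crtc2+/+ members (94.4%). Klrb1c was detected in 214 Crtc2-/- and 183 Crtc2+/+ members, and the lectin-like receptor Klre1 in 210 and 182. Eomes was found in 93 Crtc2-/- members (40.8%) and 66 Crtc2+/+ members (33.3%), so most members passed without it. The median sum over the 4 genes was 15 UMIs in Crtc2-/- and 14 in Crtc2+/+ members. At the edge of the rule, 9 Crtc2-/- and 4 Crtc2+/+ members had exactly 2 UMIs, while 82 Crtc2-/- and 36 Crtc2+/+ barcodes met every other criterion with 1. A further 498 Crtc2-/- and 476 Crtc2+/+ barcodes failed on Cd3 transcripts alone.

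Markers outside the rule were read to check the label. Gzma, a granzyme, had a UMI in 161 Crtc2-/- members (70.6%) and 107 Crtc2+/+ members (54.0%). Prf1, which encodes perforin, had one in 173 Crtc2-/- members (75.9%) and 121 Crtc2+/+ members (61.1%). After each cell was thinned to 1000 UMIs, the shares in gated B cells, which should lack both genes, were 0.187% and 0% for Gzma and 0.373% and 0.199% for Prf1 in Crtc2-/- and Crtc2+/+ cells (median depths before thinning 3926.5 and 3442 UMIs). T cell markers summed to 741 CPM in Crtc2-/- and 873 CPM in Crtc2+/+ members, with 2 of 16 at 0 in Crtc2-/- and 4 of 16 at 0 in Crtc2+/+ members, such as Cd6 in Crtc2-/- and Cd8a and Cd5 in Crtc2+/+ members. Transcripts of T cell receptor constant regions were common, with Trbc1 in 64.0% of Crtc2-/- and 65.7% of Crtc2+/+ members, Trbc2 in 51.8% and 51.0%, and Tcrg-C4 in 14.9% and 22.7%. Trbc1 stood at 289 CPM in Crtc2-/- and 315 CPM in Crtc2+/+ members, against 541 and 468 CPM in gated T cells. Trac, the alpha chain constant region, stood at 12.6 CPM in Crtc2-/- and 6.91 CPM in Crtc2+/+ members, against 597 and 530 CPM in gated T cells. A UMI of Trac, Cd4, Cd8a, Cd8b1, Cd5 or Cd6 occurred in 19 Crtc2-/- and 10 Crtc2+/+ members. The ILC2 cytokines Il5 and Il13 and the ILC3 cytokines Il22 and Il17a were at 0 in both libraries, and basophil and mast cell markers held 2 UMIs in Crtc2-/- and 0 in Crtc2+/+ members.

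Some members also carried transcripts of other cell types. Endothelial markers summed to 363 CPM in Crtc2-/- and 127 CPM in Crtc2+/+ members, with 66.9% of the Crtc2-/- UMIs in 3 cells. Neutrophil markers summed to 168 CPM in Crtc2-/- and 7.89 CPM in Crtc2+/+ members, with 89.0% of the Crtc2-/- UMIs in 3 cells. Hepatocyte markers summed to 142 CPM in Crtc2-/- and 331 CPM in Crtc2+/+ members, with 96.4% of the Crtc2+/+ UMIs in 3 cells. Dendritic cell markers stood at 3198 CPM in Crtc2-/- and 2607 CPM in Crtc2+/+ members. Macrophage and monocyte markers summed to 1217 CPM in Crtc2-/- and 1242 CPM in Crtc2+/+ members, but single genes went opposite ways. Apoe stood at 131 CPM in Crtc2-/- and 412 CPM in Crtc2+/+ members, in 37.7% and 69.2% of cells. Lyz2 (340 and 237 CPM), Ccr2 (306 and 255 CPM) and Ly6c2 (266 and 188 CPM) were higher in Crtc2-/- members. Ly6c2 is also on the NK identity list used below, and Ccr2 on the homing list, so neither marks RNA of other cells alone. No C1q UMI was found in 147 Crtc2-/- and 81 Crtc2+/+ members. At least 5 UMIs of the more specific markers of these cell types were found in 15 Crtc2-/- and 5 Crtc2+/+ members. That choice left out Pecam1, Bst2, Cd74, H2-Ab1 and the broader macrophage genes such as Apoe and Lyz2, so it covered macrophage RNA only in part. The medians of the gene lists, and the values of some genes, are also given for a reduced set without these 20 cells.

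Members made up 2.49% (2.18 to 2.82) of kept Crtc2-/- barcodes and 2.06% (1.79 to 2.36) of kept Crtc2+/+ barcodes, a ratio of 1.21 (0.993 to 1.47). The direction depended on the denominator, because the macrophage gate held 1367 Crtc2-/- and 4586 Crtc2+/+ barcodes. Outside that gate, members were 2.92% of Crtc2-/- and 3.94% of Crtc2+/+ barcodes, a ratio of 0.741 (0.610 to 0.901). Among gated T, B and NK or ILC1 barcodes they were 7.69% in Crtc2-/- and 10.7% in Crtc2+/+, a ratio of 0.720 (0.593 to 0.876).

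Crtc2 itself (ENSMUSG00000027936, GRCm38 chromosome 3, 90254163 to 90264125, plus strand) was counted 4 times in Crtc2-/- and 7 times in Crtc2+/+ members. That is 2.95 CPM in Crtc2-/- and 6.91 CPM in Crtc2+/+ members, a ratio of 0.428 (0.0918 to 1.68) whose interval spans 1, so a difference in the targeted gene was not detectable at this depth. Its paralogue Crtc3 stood at 106 CPM in Crtc2-/- and 87.8 CPM in Crtc2+/+ members, a ratio of 1.20 (0.916 to 1.58).

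Across the 8873 genes with at least 20 UMIs over both libraries, the median log2 ratio was 0.04. A log2 ratio of at least 1 was reached by 194 genes (2.19%), and one of -1 or below by 61 genes (0.687%), so 255 genes (2.87%) lay past that fold in either direction. Ratios were above 0 for 54.6% of genes and below 0 for 45.4%. Without the members that carried other cell types' transcripts, 8335 genes remained testable and the balance was the other way, with 42 genes (0.504%) past the fold as higher in Crtc2-/- and 88 (1.06%) as lower. With CPM averaged over cells, so that each cell had equal weight, 90 genes were past the fold as higher and 61 as lower. Ratios in the reduced set were above 0 for 53.3% of genes and below 0 for 46.7%. Counts in each gene list are to be read beside the shares over all genes.

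NK and ILC1 genes differed in opposite directions. All 14 measured genes of the NK identity and maturation list had a higher level in Crtc2-/- members, where 54.6% of all genes did, 2 of them past the fold, with a median log2 ratio of 0.54 beside 0.04 over all genes. Of 14 measured genes of the ILC1 and residency list, 12 had a lower level in Crtc2-/- members, where 45.4% of all genes did, 5 of them past the fold, with a median of -0.82. Without the members that carried other cell types' transcripts the medians were 0.65 and -0.70, and again 14 of 14 NK genes were above 0 (53.3% of all genes) and 12 of 14 ILC1 genes below 0 (46.7% of all genes). Both directions were thus the same in the reduced set. In gated T cells of the same libraries the medians were 0.27 for the NK list and -0.17 for the ILC1 list. Over all genes of these T cells the median was 0.03. In gated B cells the list medians were 0.13 and -0.06, beside -0.02 over all genes. The lists were chosen with earlier results of these data known.

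**Figure D1:**
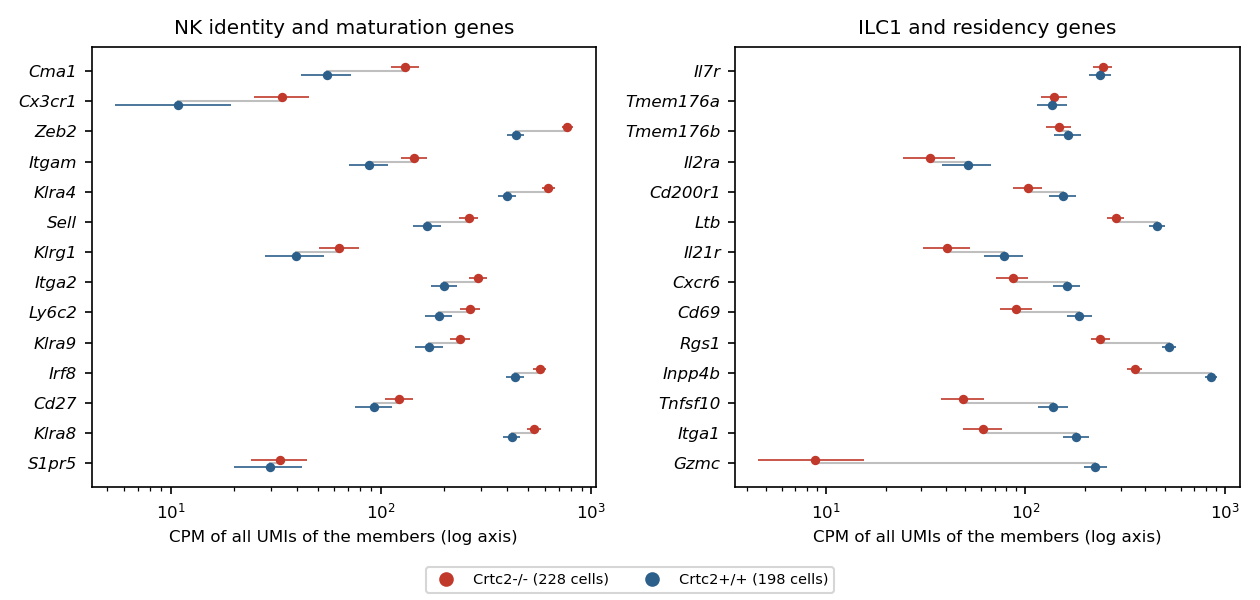
Levels of the NK identity and maturation genes (left) and of the ILC1 and residency genes (right) in CPM on a log axis, with exact 95% Poisson intervals, for 228 Crtc2-/- and 198 Crtc2+/+ cells. All 14 NK genes lie further right in Crtc2-/- cells, and 12 of 14 ILC1 genes lie further left, with Gzmc at 8.86 CPM in Crtc2-/- and 224 CPM in Crtc2+/+ cells.

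Among NK genes, Itga2, the integrin chain CD49b that separates NK cells from liver ILC1, stood at 291 CPM (263 to 321) in Crtc2-/- and 200.3 CPM (174 to 230) in Crtc2+/+ members. Zeb2, a transcription factor of terminal NK maturation, stood at 771 CPM (725 to 819) in Crtc2-/- and 437 CPM (397 to 480) in Crtc2+/+ members, a log2 ratio of 0.80. Cma1, a chymase gene, stood at 131 CPM (112 to 151) in Crtc2-/- and 55.2 CPM (41.7 to 71.8) in Crtc2+/+ members, a log2 ratio of 1.11. The 3 genes were thus higher in Crtc2-/- members beyond counting error. The chemokine receptor Cx3cr1 was sparse, at 34.0 CPM in 23 Crtc2-/- members and 10.9 CPM in 9 Crtc2+/+ members, a log2 ratio of 1.08. S1pr5, a receptor used by NK cells to leave tissue, differed less, at 33.2 CPM (24.2 to 44.5) in Crtc2-/- and 29.6 CPM (19.97 to 42.3) in Crtc2+/+ members. Klra4 and Klra8, Ly49 receptors, had log2 ratios of 0.64 and 0.35. Reads of Ly49 genes, like those of the Ifit3, Gbp, Oas, Slfn, granzyme and Tmem176 families, can be shared between near-identical copies, so single values in these families are uncertain.

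Among ILC1 genes, Itga1, the integrin chain CD49a of tissue-resident cells, stood at 61.3 CPM (48.8 to 76.0) in Crtc2-/- and 180 CPM (154 to 208) in Crtc2+/+ members, a log2 ratio of -1.41. Inpp4b, a phosphoinositide phosphatase gene, stood at 353 CPM (322 to 386) in Crtc2-/- and 850.4 CPM (795 to 909) in Crtc2+/+ members, a log2 ratio of -1.25. Tnfsf10, the death ligand TRAIL of liver ILC1, stood at 48.7 CPM (37.7 to 62.0) in Crtc2-/- and 138 CPM (116 to 163) in Crtc2+/+ members. All of these were lower in Crtc2-/- members beyond counting error. Rgs1 and Cd69, which hold lymphocytes in tissue, had log2 ratios of -1.11 and -0.97, and Cxcr6 one of -0.83. Il7r, the interleukin 7 receptor chain, did not share the direction, at 245 CPM (219 to 273) in Crtc2-/- and 238 CPM (209 to 269.8) in Crtc2+/+ members. Gzmc, a granzyme of activated ILC1, had the largest difference of the list, with 12 UMIs in 7 Crtc2-/- members and 227 UMIs in 21 Crtc2+/+ members, of which 1 cell gave 71. Without the top cell of each library the log2 ratio of Gzmc was -3.38, against -3.63 with all cells.

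Integrins were also read per cell. Itga1 was detected without Itga2 in 18 Crtc2-/- and 43 Crtc2+/+ members, and Itga2 without Itga1 in 121 and 63. Both were detected in 13 Crtc2-/- and 24 Crtc2+/+ members, and neither in 76 and 68, so many cells of each library could not be placed by these integrins. Cells were therefore also ordered by the sum of the NK list minus the sum of the ILC1 list after thinning to 1000 UMIs. The score uses both lists compared above, so it gives their difference per cell and is no separate support for it. Cells with a positive difference are called NK-leaning and those with a negative one ILC1-leaning, which are ranges of a score and not types. NK-leaning cells were 150 of 228 (65.8%, 59.2 to 71.9) in Crtc2-/- and 92 of 198 (46.5%, 39.4 to 53.7) in Crtc2+/+. ILC1-leaning cells were 65 (28.5%, 22.7 to 34.8) in Crtc2-/- and 95 (48.0%, 40.8 to 55.2) in Crtc2+/+, a log2 ratio of shares of -0.75. Within 1 UMI of a tie lay 49 Crtc2-/- and 37 Crtc2+/+ cells. Without thinning, ILC1-leaning cells were 26.8% in Crtc2-/- and 52.5% in Crtc2+/+. Whether ILC1 were fewer in the Crtc2-/- tumours or NK cells more numerous cannot be told apart from shares of the same total.

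**Figure D2:**
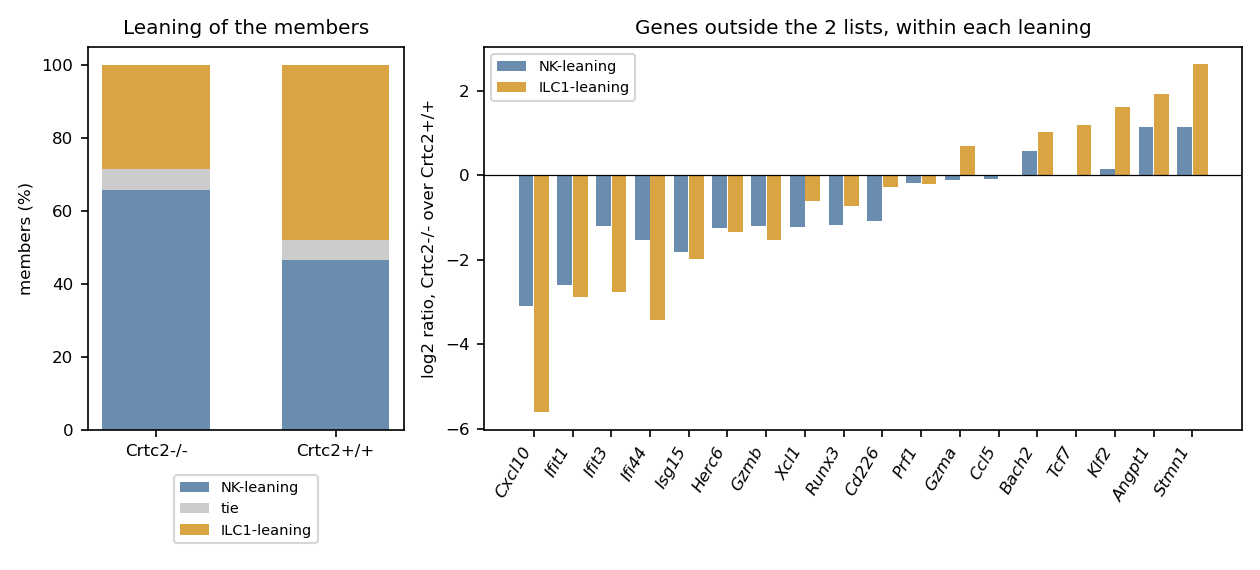
Left, percent of members that lean to the NK list, tie, or lean to the ILC1 list after thinning to 1000 UMIs; right, log2 ratios (Crtc2-/- over Crtc2+/+, 10 CPM added) of genes outside both lists within NK-leaning (150 and 92 cells) and ILC1-leaning members (65 and 95 cells). ILC1-leaning cells were 28.5% of Crtc2-/- and 48.0% of Crtc2+/+ members, and interferon response genes and Gzmb lie below 0 in both leanings.

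Cytotoxic effector genes had no common direction, with 8 of 16 measured genes above 0 (54.6% of all genes). Past the fold as lower were 2 (0.687% of all genes), Gzmc and Tnfsf10, which the ILC1 list also holds. The medians were -0.05 with all members and -0.01 in the reduced set. Gzma stood at 4159.7 CPM (4052 to 4269.8) in Crtc2-/- and 2951 CPM (2846 to 3059) in Crtc2+/+ members. Gzmb was lower, at 351 CPM (320 to 384) in Crtc2-/- and 685 CPM (635 to 738) in Crtc2+/+ members, a log2 ratio of -0.95. Prf1 stood at 453 CPM (418 to 491) in Crtc2-/- and 380 CPM (343 to 420) in Crtc2+/+ members. The 2 granzymes behaved differently once the leaning was held. In NK-leaning members Gzma stood at 5986 CPM in Crtc2-/- and 6430.3 CPM in Crtc2+/+, while Gzmb stood at 506 and 1180 CPM. In ILC1-leaning members Gzma stood at 764 CPM in Crtc2-/- and 469 CPM in Crtc2+/+, while Gzmb stood at 84.1 and 264 CPM. Gzmb was thus lower in Crtc2-/- cells of both leanings, with ratios of 0.429 (0.375 to 0.490) and 0.319 (0.216 to 0.460), whereas the Gzma ratios were 0.931 (0.887 to 0.977) and 1.63 (1.38 to 1.92). Gzma was found in 77 of 77 Crtc2-/- and 30 of 31 Crtc2+/+ carriers of Cma1, and in 84 of 151 Crtc2-/- and 77 of 167 Crtc2+/+ members without Cma1.

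Among cytokines and chemokines, 8 of 11 measured genes were lower in Crtc2-/- members (45.4% of all genes), at a median of -0.22. Past the fold were 2 as lower (0.687% of all genes) and 1 as higher (2.19%). In the reduced set 9 of 11 were lower (46.7% of all genes), 3 of them past the fold (1.06%), at a median of -0.49. Xcl1, which attracts cross-presenting dendritic cells, stood at 879 CPM (829 to 930) in Crtc2-/- and 2256 CPM (2165 to 2351) in Crtc2+/+ members, a log2 ratio of -1.35. It was lower within NK-leaning members, at 309 CPM in Crtc2-/- and 736 CPM in Crtc2+/+, and within ILC1-leaning members, at 2005 CPM in Crtc2-/- and 3091 CPM in Crtc2+/+. Ccl5, a chemokine for T cells and macrophages, stood at 8259 CPM in Crtc2-/- and 7127 CPM in Crtc2+/+ members, and Ccl4 at 1062 and 1166 CPM. Ifng, the main ILC1 and NK cytokine, stood at 56.9 CPM (44.9 to 71.0) in Crtc2-/- and 92.7 CPM (74.9 to 113) in Crtc2+/+ members. The only cytokine past the fold as higher, Cxcl9, owed its level to few cells, with 73 of 112 UMIs in 1 Crtc2-/- cell and 30 of 36 in 1 Crtc2+/+ cell. Without the members that carried other cell types' transcripts, Cxcl9 stood at 1.77 CPM in Crtc2-/- and 34.1 CPM in Crtc2+/+, a log2 ratio of -1.91. Of the 33 Crtc2+/+ UMIs left there, 30 were those of the same 1 cell. This ratio, 1 of the 3 past the fold as lower in the reduced set, thus rested mostly on 1 cell.

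Cxcl10, a chemokine that interferons induce, had the lowest log2 ratio of all 8873 genes, -4.43. It was counted 27 times in 11 Crtc2-/- members and 644 times in 30 Crtc2+/+ members, 19.9 CPM (13.1 to 29.0) and 635 CPM (587 to 686). The top Crtc2+/+ cell held 172 of these UMIs, and without the top cell of each library the log2 ratio was -4.37. In gated B cells Cxcl10 stood at 15.7 CPM in Crtc2-/- and 10.1 CPM in Crtc2+/+, so the Crtc2-/- members were close to the level in B cells. The 30 Crtc2+/+ carriers had a median of 10 type I interferon response UMIs per 1000, against 1 in the 168 Crtc2+/+ members without Cxcl10. The 11 Crtc2-/- carriers had a median of 1, as did the 217 without. Of the 30 Crtc2+/+ carriers, 0 held at least 5 UMIs of the specific markers of other cell types. Those markers leave out C1q, Apoe and Lyz2, so macrophage RNA in these carriers was not tested.

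The type I interferon response genes were lower together. All 32 measured genes were below 0 (45.4% of all genes), 19 of them past the fold (0.687% of all genes). The median log2 ratio was -1.12, with values from -3.12 to -0.27. Mx1 was not analysed here, and Oas2 had fewer than 20 UMIs. Ifit1, an RNA-binding antiviral protein, was counted 11 times in 6 Crtc2-/- members and 149 times in 31 Crtc2+/+ members, 8.12 CPM (4.05 to 14.5) and 147 CPM (124 to 173). Ifit3, its partner, stood at 21.4 CPM (14.3 to 30.8) in Crtc2-/- and 174 CPM (149 to 201) in Crtc2+/+ members. Isg15, a ubiquitin-like modifier, stood at 39.1 CPM (29.3 to 51.2) in Crtc2-/- and 207 CPM (180.1 to 237) in Crtc2+/+ members. Each of these intervals lies apart between the libraries. Ifi44 and Isg20, an interferon-induced protein and an exonuclease, had log2 ratios of -2.53 and -2.33. Usp18, which removes Isg15 from proteins, and Herc6, which attaches it in mice, had log2 ratios of -1.59 and -1.57. The smallest difference was that of Xaf1, an interferon-induced regulator of apoptosis, at 38.4 CPM (28.7 to 50.4) in Crtc2-/- and 48.3 CPM (35.8 to 63.9) in Crtc2+/+ members.

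**Figure D3:**
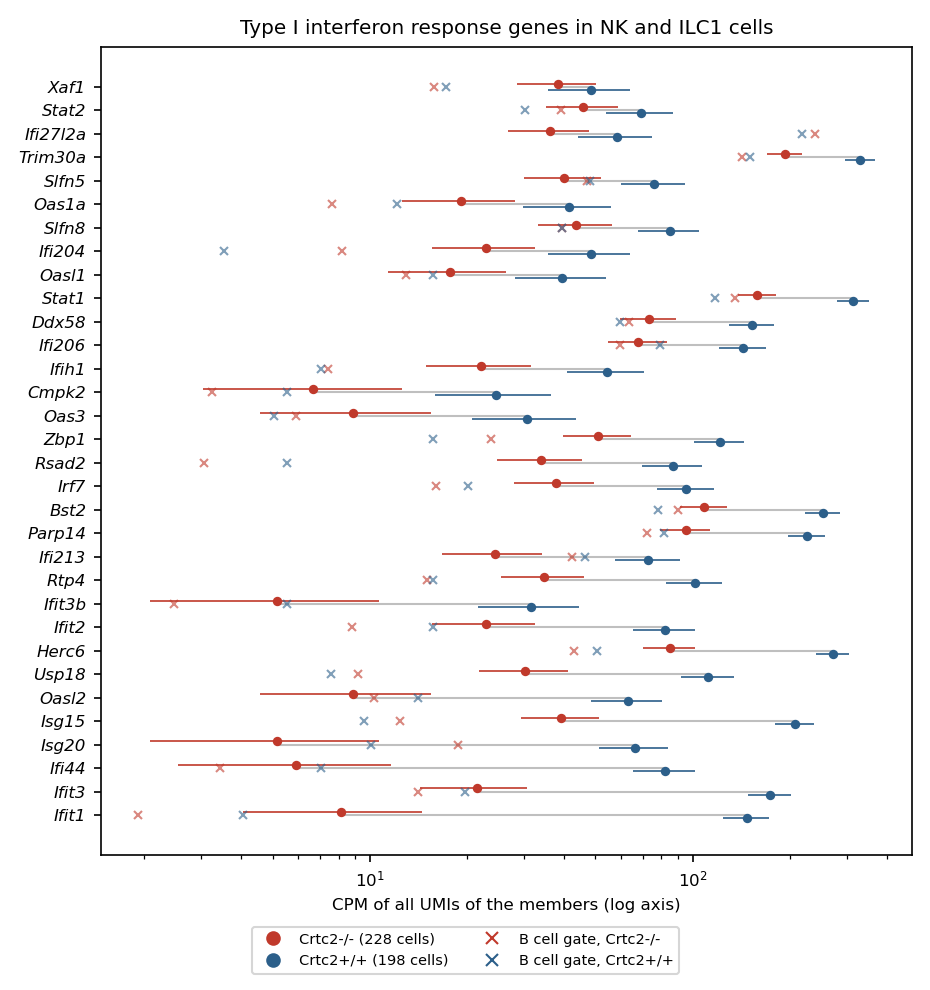
Levels of the 32 measured type I interferon response genes in CPM on a log axis, with exact 95% Poisson intervals, for 228 Crtc2-/- and 198 Crtc2+/+ NK and ILC1 cells; crosses give the same genes in gated B cells, in CPM of those cells' UMIs. Every gene lies further left in Crtc2-/- members, from Ifit1 (8.12 and 147 CPM) to Xaf1 (38.4 and 48.3 CPM).

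The interferon difference held without the members that carried other cell types' transcripts, at a median of -1.42. There 32 of 32 genes were below 0 (46.7% of all genes) and 24 past the fold (1.06%). The difference was present in both leanings. Its median was -1.37 in ILC1-leaning members (30 of 30 genes below 0, where 46.7% of all genes were). In NK-leaning members it was -0.62 (27 of 28 below 0, where 48.5% of all genes were). Ifit1 stood at 8.57 CPM in Crtc2-/- and 102 CPM in Crtc2+/+ NK-leaning members, and at 9.09 and 130.1 CPM in ILC1-leaning members. The difference between the leanings was not tested. Gated T cells of the same libraries had a median of -1.17, with 33 of 33 genes below 0 (44.1% of all genes), whereas gated B cells had a median of -0.05, with 19 of 32 below 0 (53.2% of all genes). These gates share the libraries with the members, so they are given side by side and are no independent repeat.

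Per cell, many interferon response UMIs were found in a minority of members, more often in Crtc2+/+ ones. After thinning to 1000 UMIs, Crtc2-/- members had a mean of 1.32 and Crtc2+/+ members a mean of 3.18 such UMIs, while the median was 1 in both. At least 3 were found in 28 Crtc2-/- members (12.3%, 8.32 to 17.3) and 60 Crtc2+/+ members (30.3%, 24.0 to 37.2). At least 10 were found in 1 Crtc2-/- member (0.439%, 0.0111 to 2.42) and 20 Crtc2+/+ members (10.1%, 6.28 to 15.2). None was found in 37.3% of Crtc2-/- and 27.8% of Crtc2+/+ members. Of the 20 Crtc2+/+ cells, 17 carried Cxcl10, all 20 carried Xcl1, 13 were ILC1-leaning and 5 NK-leaning. By the specific markers, which leave out most macrophage genes, 1 of the 20 carried other cell types' transcripts. In gated B cells at least 10 were found in 0.653% of Crtc2-/- and 0.596% of Crtc2+/+ cells, and in gated T cells in 2.95% and 20.2%.

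**Figure D4:**
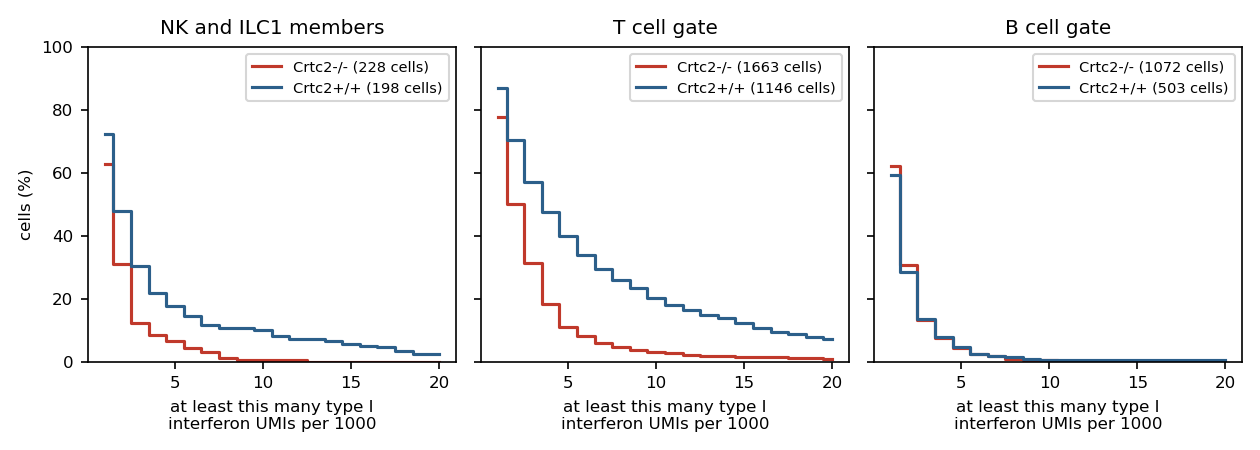
Percent of cells with at least a given number of type I interferon response UMIs after thinning to 1000 UMIs, in NK and ILC1 members, gated T cells and gated B cells of each library. At 10 UMIs the members stand at 0.439% in Crtc2-/- and 10.1% in Crtc2+/+, while gated B cells stand at 0.653% and 0.596%.

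Type I interferons act through the transcription factor ISGF3, which binds the interferon-stimulated response element. Its core, read as GAAA, any 2 bases and GAAA, or on the other strand TTTC, any 2 bases and TTTC, was searched in RefSeq promoters (GRCm38.p6), from 250 bases before to 50 after each start, where overlapping matches were counted apart. It was found in 16 of 25 matched type I interferon response genes (64.0%), against 1079 of 27025 genes (3.99%) and 1131 of 32851 promoters (3.44%) in the whole table. It was found in 0 of 12 NK identity and 0 of 11 ILC1 genes, and in 9 of 14 interferon gamma response genes. Type I interferon response genes with the motif had a median log2 ratio of -1.05 (16 genes) and those without it -1.48 (9 genes). In the interferon gamma list the order was the reverse, at -0.58 with the motif (9 genes) and -0.10 without it (5 genes). The motif thus did not mark the larger differences in the type I list, and the lists had no common order. The 250 bases before the start are shown for Ifit1, Ifit3, Isg15 and Cxcl10, which have the motif and are among the lowest log2 ratios of the members, with motif matches in capitals. Counted from the start to the first base of the match, Ifit1 has it at -104 and -85, Ifit3 at -156 and -122, Isg15 at -78, -72 and -66 in overlapping copies, and Cxcl10 at -213. Ifi44 and Isg20 have no match in this window.
Ifit1 (chr19:34640639-34640888, plus strand): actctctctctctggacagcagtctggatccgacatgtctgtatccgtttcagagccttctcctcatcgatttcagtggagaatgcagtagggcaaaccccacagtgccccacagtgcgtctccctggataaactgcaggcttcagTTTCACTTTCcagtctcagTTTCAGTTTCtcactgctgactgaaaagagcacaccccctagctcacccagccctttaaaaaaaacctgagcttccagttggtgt
Ifit3 (chr19:34583279-34583528, plus strand): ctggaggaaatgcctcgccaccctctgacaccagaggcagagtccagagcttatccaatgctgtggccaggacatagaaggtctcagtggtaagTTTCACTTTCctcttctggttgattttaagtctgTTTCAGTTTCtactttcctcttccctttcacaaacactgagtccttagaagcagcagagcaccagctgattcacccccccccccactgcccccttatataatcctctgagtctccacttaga
Isg15 (chr4:156200819-156201068, minus strand): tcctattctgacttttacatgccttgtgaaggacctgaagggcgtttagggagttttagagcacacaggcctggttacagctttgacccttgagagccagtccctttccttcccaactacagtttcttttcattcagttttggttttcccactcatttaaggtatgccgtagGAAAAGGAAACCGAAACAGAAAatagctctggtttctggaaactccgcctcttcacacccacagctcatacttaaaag
Cxcl10 (chr5:92348890-92349139, minus strand): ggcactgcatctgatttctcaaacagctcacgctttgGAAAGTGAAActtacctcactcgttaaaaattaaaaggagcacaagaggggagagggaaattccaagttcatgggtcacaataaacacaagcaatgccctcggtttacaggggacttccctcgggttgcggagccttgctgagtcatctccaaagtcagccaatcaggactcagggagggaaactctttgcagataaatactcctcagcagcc

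Interferon gamma response genes were lower to a smaller degree, with 17 of 19 below 0 (45.4% of all genes) and a median of -0.43. Past the fold were 2 as lower (0.687% of all genes) and Cxcl9 as higher (2.19% of all genes). The other gene above 0 was Ciita, the MHC class II transactivator, at 60.5 CPM in Crtc2-/- and 25.7 CPM in Crtc2+/+ members, but at 15.0 and 12.4 CPM without the members that carried other cell types' transcripts. Igtp, an immunity-related GTPase, stood at 29.5 CPM (21.1 to 40.2) in Crtc2-/- and 79.9 CPM (63.5 to 99.3) in Crtc2+/+ members. Gbp6, a guanylate-binding protein, stood at 15.5 CPM (9.60 to 23.7) in Crtc2-/- and 61.2 CPM (46.9 to 78.4) in Crtc2+/+ members. Irf1, a transcription factor, and Psmb8, an immunoproteasome subunit, differed less, with log2 ratios of -0.16 and -0.13 and ratio intervals that include 1. The list's direction was lost in NK-leaning members alone, where 9 of 18 genes were below 0 (48.5% of all genes) and the median was 0.000359. In the reduced set 18 of 19 were below 0 (46.7% of all genes), 4 past the fold (1.06%), at a median of -0.79. Among the 4 was Cxcl9, whose ratio there rested mostly on 1 Crtc2+/+ cell. Iigp1, an immunity-related GTPase, had a log2 ratio of -0.28 with all members and -2.67 in the reduced set, where it held 7 UMIs in Crtc2-/- and 90 in Crtc2+/+ members. Of the interferon receptor genes, Ifnar1, Ifnar2 and Ifngr1 had log2 ratios of -0.22, -0.01 and -0.05, with ratio intervals that include 1. Ifngr2, the second chain of the interferon gamma receptor, was higher, with 32 UMIs in 15 Crtc2-/- members and 7 UMIs in 6 Crtc2+/+ members, but held 7 and 3 UMIs without the members that carried other cell types' transcripts.

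Among transcription factors, 13 of 20 measured genes were above 0 (54.6% of all genes), none was past the fold and the median was 0.25. In the reduced set 15 of 20 were above 0 (53.3% of all genes) and the median was 0.23. Klf2, which keeps lymphocytes in circulation, stood at 809 CPM (762 to 859) in Crtc2-/- and 462 CPM (421 to 506) in Crtc2+/+ members, in 199 and 101 cells. Bach2, a repressor of effector differentiation, stood at 667 CPM (625 to 712) in Crtc2-/- and 383 CPM (346 to 423) in Crtc2+/+ members. Runx3, which NK cells and ILC1 need for their development, was lower, at 196 CPM (173 to 222) in Crtc2-/- and 393 CPM (355 to 433) in Crtc2+/+ members. Within NK-leaning members Klf2 was near level, at 1021 CPM in Crtc2-/- and 923 CPM in Crtc2+/+, but within ILC1-leaning members it stood at 446 and 139 CPM, a log2 ratio of 1.61. Tcf7, a factor of early innate lymphoid cells, followed the same order, at 119 and 119.8 CPM in NK-leaning and 168 and 67.8 CPM in ILC1-leaning members. Runx3 was lower within both, with log2 ratios of -1.17 in NK-leaning and -0.74 in ILC1-leaning members. The lineage factor Tbx21 stood at 299 CPM (271 to 330) in Crtc2-/- and 326 CPM (291 to 363) in Crtc2+/+ members.

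**Figure D5:**
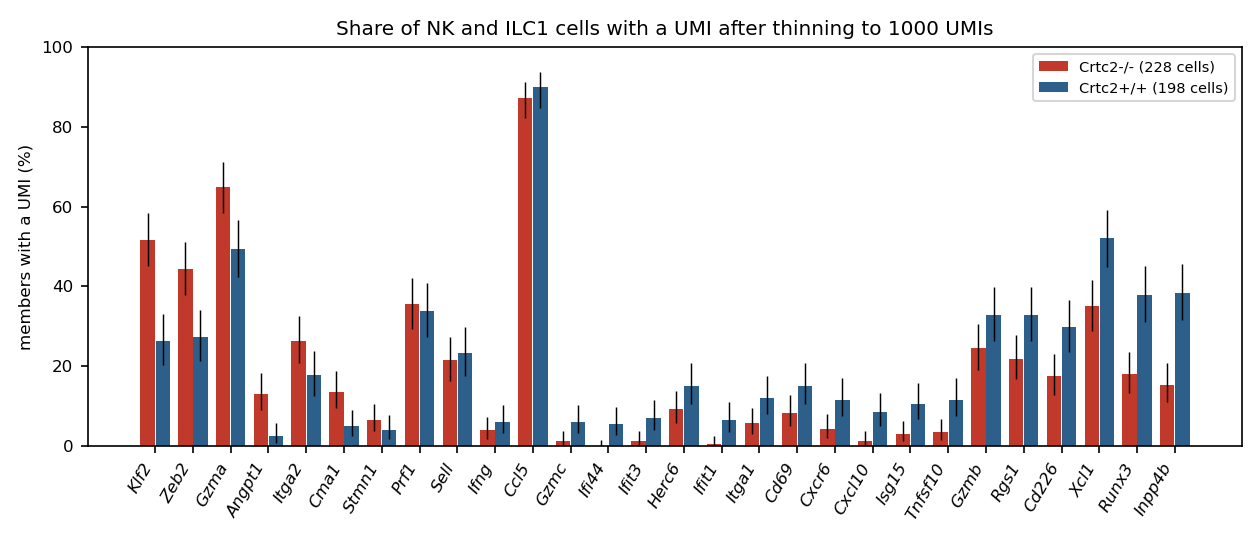
Percent of members with at least 1 UMI of 28 genes after each cell was thinned to 1000 UMIs, with exact 95% binomial intervals, for 228 Crtc2-/- and 198 Crtc2+/+ cells. Genes run from the largest positive difference, Klf2 (51.8% and 26.3%), to the largest negative one, Inpp4b (15.4% and 38.4%).

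Shares of cells with a UMI were also read at equal depth. A UMI of Xcl1 was left in 35.1% (28.9 to 41.7) of Crtc2-/- and 52.0% (44.8 to 59.1) of Crtc2+/+ members, and before thinning in 59.2% and 75.8%. A UMI of Runx3 was left in 18.0% (13.2 to 23.6) of Crtc2-/- and 37.9% (31.1 to 45.03) of Crtc2+/+ members, and before thinning in 59.6% and 76.8%. Gated Crtc2-/- and Crtc2+/+ B cells gave 0.0933% and 0.398% for Xcl1 and 3.36% and 3.98% for Runx3. Ifit1 was left in 0.439% of Crtc2-/- and 6.57% of Crtc2+/+ members, before thinning in 2.63% and 15.7%, and in 0.280% and 0.398% of gated B cells. The Crtc2-/- share of Ifit1 was thus near that of B cells.

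Activating receptors and their adaptors had 11 of 19 measured genes below 0 (45.4% of all genes), none past the fold and a median of -0.08. In the reduced set 11 of 19 were above 0 (53.3% of all genes) and the median was 0.06. Cd226, an adhesion receptor that ILC1 carry, was the lowest, at 317 CPM (288 to 349) in Crtc2-/- and 568 CPM (523 to 617) in Crtc2+/+ members. It stood at 88.2 CPM in Crtc2-/- and 199.6 CPM in Crtc2+/+ NK-leaning members, and at 737 and 891 CPM in ILC1-leaning ones. Klrk1, which encodes NKG2D, stood at 1061 CPM in Crtc2-/- and 1207 CPM in Crtc2+/+ members. Inhibitory receptors and checkpoint genes were balanced, with 9 of 18 above 0 (54.6% of all genes). Their medians were 0.01 with all members and 0.07 in the reduced set. Cish, which restrains interleukin 15 signalling in NK cells, was past the fold as lower, at 12.6 CPM (7.31 to 20.1) in Crtc2-/- and 53.3 CPM (40.0 to 69.5) in Crtc2+/+ members. Klra5, past the fold as higher, rested on 2 cells in each library. Pdcd1, which encodes PD-1, had 4 UMIs in Crtc2-/- and 6 in Crtc2+/+ members, too few to compare.

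Cytokine receptors had a median of -0.18, with 11 of 17 below 0 (45.4% of all genes) and none past the fold. In the reduced set the median was -0.08, with 10 of 16 below 0 (46.7% of all genes). The interleukin 18 receptor chain Il18r1 was higher, at 486 CPM (449 to 524) in Crtc2-/- and 310 CPM (277 to 346) in Crtc2+/+ members. Homing and adhesion genes had a median of 0.17 and, in the reduced set, 0.28. With all members 15 of 22 were above 0 (54.6% of all genes), 1 past the fold as higher (2.19%) and 2 as lower (0.687%). Itga4, an integrin chain of circulating cells, stood at 834 CPM (786 to 884) in Crtc2-/- and 461 CPM (419.9 to 504) in Crtc2+/+ members. Cdh1, the E-cadherin gene, stood at 4.43 CPM in Crtc2-/- and 25.7 CPM in Crtc2+/+ members, a log2 ratio of -1.30. TGF-beta response genes had 5 of 10 above 0 (54.6% of all genes) and a median of -0.06. In the reduced set 4 of 10 were above 0 (53.3% of all genes) and the median was -0.13. Pmepa1, a feedback inhibitor of TGF-beta, was the only one past the fold, at 25.8 CPM (18.0 to 35.9) in Crtc2-/- and 81.9 CPM (65.2 to 101) in Crtc2+/+ members.

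Genes of CRTC, CREB and cAMP signalling, the pathway of the deleted coactivator, showed no common direction. Of 19 measured genes, 10 were above 0 (54.6% of all genes) and 1 past the fold as higher (2.19%), at a median of 0.08. In the reduced set 8 of 19 were above 0 (53.3% of all genes), none was past the fold and the median was -0.04. The CREB targets Crem and Sik1 stood at 99.7 and 44.3 CPM in Crtc2-/- and at 113 and 56.2 CPM in Crtc2+/+ members, and both ratio intervals include 1. Pde4d, a cAMP phosphodiesterase, was past the fold, at 53.9 CPM (42.2 to 67.8) in Crtc2-/- and 21.7 CPM (13.6 to 32.9) in Crtc2+/+ members. Without the members that carried other cell types' transcripts its log2 ratio was 0.60. Immediate early and dissociation genes had a median of 0.04, with 11 of 18 above 0 (54.6% of all genes). In the set without those members the median was -0.15, with 4 of 17 above 0 (53.3% of all genes). Egr1, an immediate early transcription factor and the only one past the fold, stood at 93.8 CPM in Crtc2-/- and 20.7 CPM in Crtc2+/+ members, but at 18.6 and 21.7 CPM without those members.

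Cell cycle genes were mostly higher in the full set of Crtc2-/- members, at a median of 0.70. There 15 of 17 were above 0 (54.6% of all genes) and 3 past the fold (2.19%). Without the members that carried other cell types' transcripts, 8 of 15 were above 0, near the 53.3% of all genes. Past the fold were 2 in each direction, against 0.504% of all genes as higher and 1.06% as lower. Mki67 and Top2a, genes of mitosis, stood at 51.7 and 104 CPM in Crtc2-/- and at 36.5 and 54.3 CPM in Crtc2+/+ members. In the reduced set Mki67 stood at 14.2 CPM in Crtc2-/- and 38.2 CPM in Crtc2+/+, and Top2a at 56.6 and 56.8 CPM. Of 23 Crtc2-/- members with a UMI of either gene, 7 carried other cell types' transcripts, against 0 of 15 Crtc2+/+ members, and median depths were 10748 and 5185 UMIs. In the reduced set Pcna, the polymerase clamp, stood at 79.6 CPM in Crtc2-/- and 30.0 CPM in Crtc2+/+ members, and the list as a whole had a median of 0.49.

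By the fixed rule for single genes, the 12 highest log2 ratios among 3661 eligible genes were those of Stmn1, Angpt1, Sbno2, Pmaip1, Mcm7, Pcna, Scimp, Cma1, Pola1, Pde2a, H2-DMb1 and Dnah8, of which 8 were past the fold. Pola1, Scimp and Mcm7 had log2 ratios of 0.99, 1.16 and 1.27, but 0.13, 0.51 and 0.54 when 1 UMI sufficed for membership. Pola1 is the catalytic subunit of DNA polymerase alpha, Pde2a a cyclic nucleotide phosphodiesterase, Scimp an adaptor of immune cells, Sbno2 a transcriptional regulator and Dnah8 an axonemal dynein. Angpt1, which encodes the vascular ligand angiopoietin 1, stood at 157 CPM (137 to 180) in 75 Crtc2-/- members and 45.4 CPM (33.2 to 60.5) in 24 Crtc2+/+ members. It was almost absent from gated T cells, at 1.12 and 1.11 CPM, and its log2 ratio was 1.59 with all members and 1.74 without those that carried other cell types' transcripts. Of the 75 Crtc2-/- carriers, 57 were NK-leaning, and of the 24 Crtc2+/+ carriers 17. Stmn1, a microtubule regulator of dividing cells, stood at 247 CPM (221 to 275) in Crtc2-/- and 62.2 CPM (47.8 to 79.5) in Crtc2+/+ members, and at 182 and 65.1 CPM in the reduced set. Pmaip1, a BCL2-family gene, had a log2 ratio of 1.32 with all members and 0.63 in the reduced set. H2-DMb1, an MHC class II chaperone gene, had a log2 ratio of 0.96 with all members but -0.31 in the reduced set. The 12 lowest were those of Cxcl10, Gzmc, Ifit1, Ifit3, Ifi44, Isg20, Isg15, Usp18, Herc6, Cish, Ifit2 and Gbp6, and 33 eligible genes were past the fold as lower. On GRCm38, Angpt1 lies on chromosome 15 (42424723 to 42676977), Stmn1 on chromosome 4 (134468320 to 134473843), Gzmc on chromosome 14 (56231441 to 56234656) and Cma1 on the same chromosome (55941451 to 55944675), as GENCODE M21 gives them.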

How the data were processed

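The authors deposited raw UMI counts as a sparse matrix for each library, and the file headers name Cell Ranger 7.1.0. The submitters' processing notes list mm10, Cell Ranger and Seurat. Per the labels' protocols, suspensions of tumour cells went through Chromium 3' chemistry. The shallowest deposited barcode had 501 UMIs in the Crtc2-/- and 502 in the Crtc2+/+ library, of 9242 and 9707 barcodes with 78040008 and 81487425 UMIs. The sources used here do not say how intronic reads and strand were treated. Of 32285 features, 32158 matched GENCODE M21, the source of coordinates.

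Members were chosen by raw UMIs. Doublets were kept in the main analysis, and Scrublet (scanpy 1.11.5, expected rate 0.8% per 1000 cells) called 4 Crtc2-/- and 3 Crtc2+/+ members. It called 273 Crtc2-/- (2.98%) and 263 Crtc2+/+ (2.74%) barcodes in all. Counts were summed over the members of each library and given as CPM. Gate genes stayed out of the gene comparison. For shares, every cell was thinned by random draws to 1000 UMIs. The fold computation was tested on simulated data. No paired or replicated test exists for 1 library per genotype.

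Genes were named as the defining genes and the largest log2 ratios of each list, plus the 12 highest and 12 lowest log2 ratios among genes with at least 50 CPM and a UMI in at least 10% of members of the higher library, and a level no lower than 20% of that in the gated cell class where the gene was highest. That choice passed over mitochondrial, ribosomal, haemoglobin, antigen receptor, sex-linked and predicted genes. The members and the gene lists were chosen with earlier results of these data known. Python 3.11.15 was used with pandas 2.3.3, scipy 1.17.1, matplotlib 3.10.9 and numpy 2.4.6.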

Additional observations from a re-analysis of the deposited data

How the results depend on the processing

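No paired analysis was possible because each genotype had 1 library, and for the same reason no replicate could be left out. Of the main results under their alternatives, 114 values stayed within a range set by the main value, 9 moved beyond it and 3 turned round. That range was an interval of the main share or list median, or a fixed fold of a main count. The log2 ratio of member shares was 0.93 with no C1q UMI allowed (147 Crtc2-/- and 81 Crtc2+/+ members), -0.47 as a share of gated T, B and NK or ILC1 barcodes and -0.43 outside the macrophage gate. The count of higher genes was 448 with 1 CPM added, 90 with the mean of per-cell CPM, 80 with at least 50 UMIs and 42 without the members that carried other cell types' transcripts, an alternative chosen after seeing the data. The count of lower genes was 173 with 1 CPM added and 141 with no C1q UMI. The median of the NK list was 0.26 with a gate of at least 1 UMI. In NK-leaning members alone the type I interferon median was -0.62 and the interferon gamma median turned round to 0.000359. The type I interferon median lay between -1.42 and -0.62 over 17 settings, and the ILC1 median between -1.03 and -0.65 over 15. H2-DMb1 turned round to -0.17 with no C1q UMI and to -0.31 without the members that carried other cell types' transcripts. Of 360 values of the named genes, 322 lay within the counting interval of the main ratio, which is wide for sparse genes. Over 15 settings the log2 ratio of Gzmc ranged from -4.51 to -1.84, and that of Cxcl10 from -4.93 to -2.59. The cause of these shifts was not tested. Depth limits genes with few UMIs such as Crtc2 and Pdcd1.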

Other observations

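Lipid handling genes had 12 of 14 measured genes above 0 (54.6% of all genes) and a median log2 ratio of 0.21. Without the members that carried other cell types' transcripts, 8 of 12 were above 0 (53.3% of all genes) and the median was 0.20. In that reduced set Cpt1a, which brings fatty acids into mitochondria, stood at 44.2 CPM in Crtc2-/- and 15.5 CPM in Crtc2+/+ members, a log2 ratio of 1.09, against 0.85 with all members. Glycolysis and hypoxia genes had 7 of 14 above 0 (54.6% of all genes) and a median of -0.01. In the reduced set 7 of 13 were above 0 (53.3% of all genes) and the median was 0.01. Vegfa, a vascular growth factor gene, had a log2 ratio of -0.67 with all members and -1.04 in the reduced set, on 5 UMIs in Crtc2-/- and 19 in Crtc2+/+ members. Cd36, a fatty acid translocase, had 80 UMIs in 10 Crtc2-/- members and 0 in Crtc2+/+ members, where the exact interval reaches 3.64 CPM. Without the members that carried other cell types' transcripts it had 3 UMIs in Crtc2-/- and 0 in Crtc2+/+ members. Genes of DNA-PK and end joining had 4 of 7 above 0 (54.6% of all genes) and a median of 0.07. In the reduced set 3 of 7 were above 0 (53.3% of all genes) and the median was -0.01. Prkdc, the catalytic subunit of DNA-PK, stood at 51.7 CPM in Crtc2-/- and 45.4 CPM in Crtc2+/+ members, a ratio of 1.14 (0.774 to 1.69).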
